A study of Mus musculus with 15 samples.

Results

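Molecular chaperones of the HSP, DNAJ and CCT families were followed in the mouse macrophage-like line RAW264.7 after exposure to LCCL, a peptide whose core motif the series title links to M1 macrophages, the classically activated inflammatory form. Members were the genes whose symbols belong to the heat shock protein series (Hspa, Hspb, Hspd, Hspe, Hsph and Hsp90), the J-domain series (Dnaja, Dnajb and Dnajc) or the chaperonin subunits (Cct), with named pseudogenes left out. This gave 82 members of the 25639 gene symbols in the table. Of these, 70 had enough counts to be tested, among 12401 tested genes in all. The groups were 10 µg LCCL for 24 h, 1 µg LCCL for 24 h, 10 µg LCCL for 6 h, 1 µg LCCL for 6 h and untreated cells, with 3 libraries each, and all cells carry the label wild type. The doses are labelled without a volume. No group is labelled as vehicle, and when the untreated cells were harvested is not stated, so peptide and time in culture cannot be told apart in the comparisons with untreated cells.

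Chaperones bind proteins that are unfolded or still being made and help them reach or keep their fold. HSP70 proteins work in cycles with J-domain proteins, which bring them their clients, and with nucleotide exchange factors such as HSP110 proteins. HSP90 acts later on many signalling proteins, and the CCT ring folds actin and tubulin. The transcription factor HSF1 raises the stress-inducible members in the cytosol, while the unfolded protein response raises those of the endoplasmic reticulum. Macrophages draw on both when they make cytokines and receptors in quantity.

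Library totals ran from 19085148 to 22434642 counts, and levels are given as CPM, counts scaled to a common library size. All 8 macrophage markers checked were expressed, among them Lyz2 at 7102 to 11049 CPM and Csf1r at 786 to 1560 CPM. The summed level of the 8 was 11348 ± 571 CPM at 10 µg 24 h, 14174 ± 1427 CPM at 1 µg 24 h and 14998 ± 320 CPM in untreated cells (SD, n = 3 each). This sum is weighted to Lyz2, with 2879186 counts over the 15 libraries, where the next marker, Cd14, had 548669. Markers of other cell types were at or near 0, with Cd3e, Cd8a, Ms4a1, Col1a1, Epcam, Krt8 and Krt18 without a count and Cd79a at most at 0.82 CPM. In bulk RNA a lower level can come from fewer cells of a kind or from less RNA per cell, and these cannot be told apart. The labels do not say that the libraries came from separate cultures, so p-values reflect only how much these libraries vary, and that variation may be technical. Replicate 1 at 1 µg 24 h stood apart from the other libraries of its group, with chi-square values of 12.9 and 14.6 per gene against them, where other pairs within a group ran from 2.5 to 6.9. For some of the results that rest on it, the value without it is given as well.

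Promoter sequences, 250 bases before to 50 after the gene start in RefSeq on build GRCm38.p6, were found for 67 of the 82 members and are shown for the 2 stress pathways the members belong to. Heat shock elements, the sites HSF1 is known to bind, were searched as 2 facing units, GAANNTTC or TTCNNGAA. Each form reads the same on both strands. The search allows overlaps of the forms. The following stretches lie upstream of the start and have the matched letters in capitals. They come from the inducible HSP110 gene Hsph1 (chr5:149636347-149636384, minus strand), the inducible HSP70 genes Hspa1a (chr17:34972238-34972275, minus strand) and Hspa1b (chr17:34959320-34959357, minus strand), the mitochondrial co-chaperonin gene Hspe1 (chr1:55088044-55088091, plus strand) and the J-domain gene Dnaja1 (chr4:40722329-40722366, plus strand).
Hsph1: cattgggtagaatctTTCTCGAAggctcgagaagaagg
Hspa1a: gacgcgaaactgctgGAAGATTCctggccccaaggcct
Hspa1b: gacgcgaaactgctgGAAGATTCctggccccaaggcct
Hspe1: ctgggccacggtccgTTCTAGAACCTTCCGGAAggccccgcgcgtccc
Dnaja1: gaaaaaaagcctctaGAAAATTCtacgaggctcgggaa
The Hspa1a and Hspa1b stretches are the same letter for letter, and the Hspe1 stretch holds 3 overlapping matches in 1 run. A pair was present in the promoters of 17.0% of 27025 genes and 28.4% of members. It was present in 9 of 11 inducible and 4 of 12 constitutive members with a sequence. The inducible list was drawn up as heat shock factor targets, so a high share there was built in. The windows of Hspd1 and Hspe1 overlap, and their shared sites are counted for both genes. Among members called lower at 10 µg 24 h it was present in 10 of 28, and among those called higher in 1 of 16, Dnajb6. Over all members it was present in 19 of 67. These include Dnaja4, Dnajb4, Dnajc5g, Hspa1a, Hspb1, Hspb3, Hspb6 and Hspb8, which were not tested or not called at 10 µg 24 h. Whether a pair goes with the direction of change was not tested. Hspa8, Hsp90ab1 and Hsp90aa1 had no sequence and are in none of these counts of members. A match is a description of the letters and not evidence of binding.

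The endoplasmic reticulum stress element, known to be bound during the unfolded protein response, was searched as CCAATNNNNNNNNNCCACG and, for the other strand, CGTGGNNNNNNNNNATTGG. It was present in 0.137% of all promoters and in 3 of 9 members of the endoplasmic reticulum with a sequence. These were Hspa5 (chr2:34772010-34772058, plus strand), Hsp90b1 (chr10:86705518-86705671, minus strand) and Dnajc3 (chr14:118937812-118937860, plus strand), with the matched letters in capitals.
Hspa5: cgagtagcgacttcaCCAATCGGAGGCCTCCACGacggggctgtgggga
Hsp90b1: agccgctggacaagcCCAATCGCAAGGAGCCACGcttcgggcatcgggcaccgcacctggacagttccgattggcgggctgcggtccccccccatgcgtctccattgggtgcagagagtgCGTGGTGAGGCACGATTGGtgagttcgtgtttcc
Dnajc3: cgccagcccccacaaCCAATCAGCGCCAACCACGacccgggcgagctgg
The Hsp90b1 stretch holds 2 matches, 1 in each orientation. The unfolded protein response is known to raise members of this compartment, so a high share among them is not a separate finding. Hspa5, Hsp90b1 and Dnajc3 had lower transcript levels at 24 h, as described with the endoplasmic reticulum members. So did Dnajb11 and, at 10 µg 24 h, Dnajc10, whose promoter sequences held no match to this element.

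At 24 h the summed CPM of chaperone transcripts was lower than in untreated cells, while at 6 h it was close to the untreated level. The 70 tested members summed to 8439, 9061 and 9093 CPM at 10 µg 24 h and 9386, 9206 and 8864 CPM at 1 µg 24 h, against 12571, 12583 and 12650 CPM in untreated cells. They summed to 12493, 12236 and 12327 CPM at 10 µg 6 h and to 12749, 12451 and 12208 CPM at 1 µg 6 h. All 6 libraries at 24 h lay below all 9 others. The members made up 0.886% of the scaled library size at 10 µg 24 h and 0.915% at 1 µg 24 h. In untreated cells they made up 1.26%. These are not shares of the raw counts, because library totals were multiplied by a scaling factor. That factor was 1.02 to 1.05 at 10 µg 24 h, 1.03 to 1.06 at 1 µg 24 h and 0.973 to 0.977 in untreated cells. The sum of the macrophage markers, which is weighted to Lyz2, was also lower at 10 µg 24 h than in untreated cells. Directions of the single markers are not given, and their part in the result was not tested.

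Member by member the changes went both ways, with the most abundant ones lower. At 10 µg 24 h against untreated cells, 53 of 70 members passed edgeR's quasi-likelihood test at an adjusted p under 0.05, 20 higher and 33 lower, where 70.3% of all tested genes passed, 35.4% higher and 34.9% lower. At 1 µg 24 h, 42 passed, 13 higher and 29 lower, where 61.8% of all tested genes passed, 30.8% higher and 31.0% lower. The share of members that passed was thus near that of all genes at both doses, and 57 of 70 members had groups that did not overlap at 10 µg 24 h, beside 72.2% of all genes. The median log2 fold change of the members was -0.14 at 10 µg 24 h and -0.15 at 1 µg 24 h, beside 0.01 over all genes in both. Both comparisons use the same untreated libraries. Levels were also taken in CPM per kb, with the length counted over all annotated exons of a gene. That length can exceed the length of the expressed transcript, so genes can be compared only roughly. On this scale the 4 most abundant members of untreated cells were Hsp90ab1 at 596, Hspa5 at 365, Hspa8 at 313 and Hsp90b1 at 289. Their levels at 10 µg 24 h were 414, 242, 129 and 139 CPM per kb. Hspa9 had 174 and Cct2 142 CPM per kb in that group, both above Hspa8 and Hsp90b1.

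**Figure D1:**
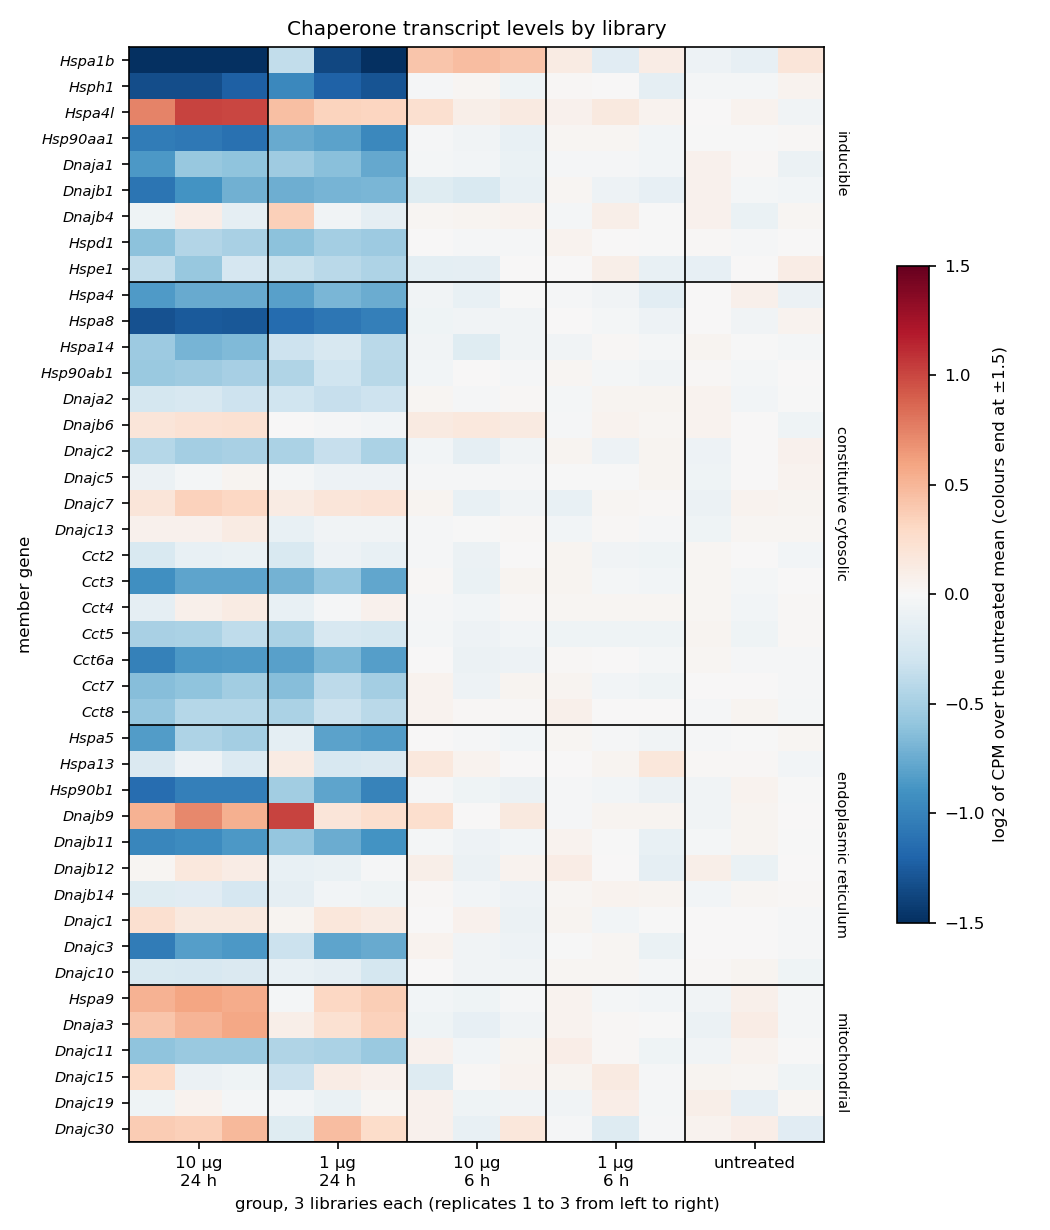
Heat map of chaperone levels in all 15 libraries, with 1 row per tested member of the inducible, constitutive cytosolic, endoplasmic reticulum and mitochondrial lists and 1 column per library. Colour is the log2 of CPM over the mean of untreated cells, ending at 1.5 in each direction, and Hspd1 and Hspe1, which are in both the inducible and the mitochondrial list, are drawn once. The 6 libraries at 24 h stand apart, with most rows lower and Hspa4l, Hspa9, Dnaja3 and Dnajb9 higher, while the 6 h libraries look like untreated cells.

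Inducible members mostly fell at 24 h at both doses. Of the 12 on this list 9 were tested, and 7 fell and 1 rose at each dose. The median log2 fold change was -0.67 at 10 µg 24 h and -0.64 at 1 µg 24 h. Over all tested genes 34.9% fell and 35.4% rose at 10 µg 24 h, and 31.0% and 30.8% at 1 µg 24 h. Hsph1, the inducible HSP110 and nucleotide exchange factor, had 68.1, 67.8 and 72.9 CPM at 10 µg 24 h and 87.2, 73.4 and 69.8 CPM at 1 µg 24 h, against 167, 168 and 177 CPM in untreated cells. Every library at 24 h was below every untreated one. The log2 fold change was -1.29 ± 0.06 (SE) at 10 µg 24 h and -1.15 ± 0.06 at 1 µg 24 h (adjusted p = 9.38e-15 and 2.61e-13, edgeR). Hsp90aa1, the inducible HSP90, had 220.1, 217 and 209.7 CPM at 10 µg 24 h and 269, 262 and 233 CPM at 1 µg 24 h, against 454, 453 and 459.7 CPM in untreated cells. Its 3 groups did not overlap, with 10 µg 24 h lowest, and the log2 fold change over untreated cells was -1.08 ± 0.05 at 10 µg 24 h and -0.84 ± 0.05 at 1 µg 24 h (adjusted p = 1.62e-15 and 6.3e-13).

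The classical heat-induced members had few counts. Hspb1, the small heat shock protein that heat induces in many cells, was removed by the filter with 16 counts over the 15 libraries. Hspa1b had 1.25, 1.51 and 1.46 CPM at 10 µg 24 h, 7.16, 3.58 and 2.91 CPM at 1 µg 24 h and 12.3, 12.7 and 12.5 CPM at 10 µg 6 h, against 8.78, 8.49 and 10.5 CPM in untreated cells. It was lowest in the 3 libraries at 10 µg 24 h, and replicate 1 at 1 µg 24 h was higher than the others of its group. The log2 fold change was -2.71 ± 0.27 at 10 µg 24 h and -1.01 ± 0.22 at 1 µg 24 h (adjusted p = 7.53e-08 and 0.000713), from 86 counts over the 3 libraries at 10 µg 24 h and 304 at 1 µg 24 h, against 577 in untreated cells. Its near-identical copy Hspa1a was not tested, with 51 counts over all libraries. The counting may have divided reads between the pair or left out those that match both, which a sum would not restore. Together the pair had 1.64 ± 0.381 CPM at 10 µg 24 h, 4.70 ± 2.29 CPM at 1 µg 24 h and 9.43 ± 0.990 CPM in untreated cells (SD, n = 3 each).

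Among the inducible J-domain partners of HSP70, Dnajb1 had 25.3, 29.0 and 32.7 CPM at 10 µg 24 h and 32.6, 33.5 and 33.6 CPM at 1 µg 24 h, against 56.6, 53.0 and 52.8 CPM in untreated cells. Its log2 fold change was -0.90 ± 0.07 at 10 µg 24 h and -0.71 ± 0.07 at 1 µg 24 h (adjusted p = 2.57e-11 and 3.57e-09). Dnaja1, a J-domain partner that acts with cytosolic HSP70, fell by a similar amount at both doses (-0.67 ± 0.07 at 10 µg 24 h and -0.64 ± 0.07 at 1 µg 24 h, adjusted p = 3.15e-09 and 1.29e-08). Dnaja1 has 1 named pseudogene, which could take some of its reads. Dnajb4, a relative of Dnajb1, did not pass at either dose, at -0.03 ± 0.10 and 0.07 ± 0.09.

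Hspa4l, an HSP110 relative of Hsph1, was the exception on the inducible list. It had 66.8, 80.8 and 80.5 CPM at 10 µg 24 h and 54.5, 50.5 and 49.9 CPM at 1 µg 24 h, against 40.2, 41.4 and 38.5 CPM in untreated cells. The 3 groups did not overlap and ran upward with dose. Its log2 fold change was 0.92 ± 0.07 at 10 µg 24 h and 0.37 ± 0.07 at 1 µg 24 h (adjusted p = 5.14e-12 and 5.08e-05). As the quotient of the 2 genes' CPM within a library, Hspa4l over Hsph1 was 1.09 ± 0.106 at 10 µg 24 h, 0.676 ± 0.0464 at 1 µg 24 h and 0.235 ± 0.0155 in untreated cells (SD, n = 3 each), with no overlap between these groups.

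**Figure D2:**
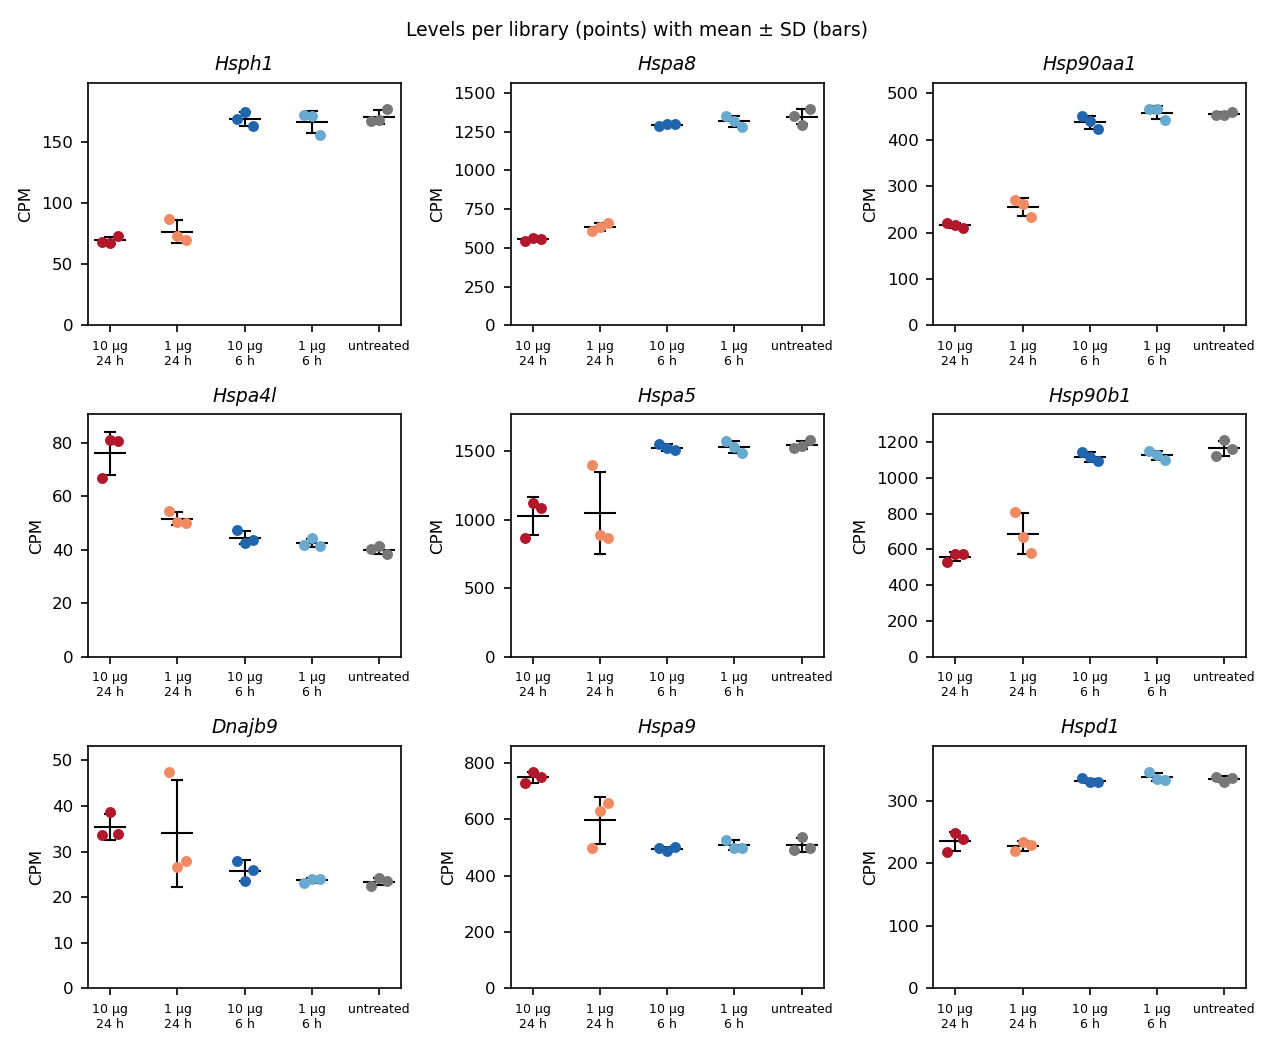
Levels of 9 chaperone genes in CPM on a linear axis from 0, with 1 point per library and bars for the mean ± SD of the 3 libraries of a group. Hsph1, Hspa8 and Hsp90aa1 are lower in every 24 h library than in every other library, Hspa4l is highest at 10 µg 24 h, and replicate 1 at 1 µg 24 h lies apart for Hspa5, Dnajb9 and Hspa9.

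Constitutive cytosolic members fell as well, and all 17 were tested. Of these, 12 fell and 2 rose at 10 µg 24 h, and 12 fell and 1 rose at 1 µg 24 h. The medians were -0.47 and -0.33 on the log2 scale. Among all tested genes 34.9% fell and 35.4% rose at 10 µg 24 h, and 31.0% and 30.8% at 1 µg 24 h. Hspa8, the HSC70 that serves as the housekeeping HSP70, had 545, 561 and 558 CPM at 10 µg 24 h and 608, 637 and 660.4 CPM at 1 µg 24 h, against 1351, 1295 and 1396 CPM in untreated cells. The groups did not overlap, and the log2 fold change was -1.28 ± 0.05 at 10 µg 24 h and -1.09 ± 0.05 at 1 µg 24 h (adjusted p = 1.97e-17 and 1.44e-15). This change was of about the size of that of Hsph1, and it was the largest on the constitutive list at each dose. Hspa4, the constitutive HSP110, had 197 ± 7.12 CPM at 10 µg 24 h and 202 ± 9.08 CPM at 1 µg 24 h, against 340.1 ± 18.1 CPM in untreated cells (SD, n = 3 each), with log2 fold changes of -0.79 ± 0.05 and -0.75 ± 0.05 (adjusted p = 8.82e-13 and 7.02e-12). Summed over each list, constitutive members had 4416 ± 144 CPM at 10 µg 24 h, 4684 ± 204 CPM at 1 µg 24 h and 6622 ± 72.6 CPM in untreated cells. Inducible members summed to 711 ± 28.3 CPM at 10 µg 24 h, 736 ± 35.8 CPM at 1 µg 24 h and 1177 ± 10.9 CPM in untreated cells (SD, n = 3 each). Both sums were lower at 24 h without overlap, and whether the lists differed from each other was not tested.

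Hsp90ab1, the constitutive HSP90, had a smaller log2 fold change than its inducible relative. It had 1215, 1238 and 1271 CPM at 10 µg 24 h and 1306, 1458 and 1337 CPM at 1 µg 24 h, against 1805, 1759 and 1801 CPM in untreated cells. Its log2 fold change was -0.53 ± 0.05 at 10 µg 24 h and -0.39 ± 0.05 at 1 µg 24 h (adjusted p = 4.81e-10 and 1.91e-07). The quotient of Hsp90aa1 over Hsp90ab1 in CPM was 0.181, 0.175 and 0.165 at 10 µg 24 h and 0.206, 0.180 and 0.174 at 1 µg 24 h, against 0.251, 0.257 and 0.255 in untreated cells. It was lower in each 24 h library than in each untreated one.

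Of the ribosome-bound chaperones, which meet proteins as they leave the ribosome, Hspa14 had 53.3, 47.8 and 48.9 CPM at 10 µg 24 h and 62.3, 65.6 and 58.6 CPM at 1 µg 24 h, against 79.6, 77.1 and 75.9 CPM in untreated cells. The 3 groups did not overlap. Its log2 fold change was -0.63 ± 0.06 and -0.32 ± 0.06, and that of its J-domain partner Dnajc2 was -0.47 ± 0.06 and -0.43 ± 0.06 (adjusted p at most 2.09e-05). The 2 constitutive members that rose at 10 µg 24 h were Dnajc7, an adaptor between HSP70 and HSP90, at 0.28 ± 0.06, and Dnajb6, which keeps proteins from aggregating, at 0.21 ± 0.04 (adjusted p = 0.000139 and 0.000192). Dnajc5, a vesicle J-domain protein, and Dnajc13, an endosomal one, did not pass, at -0.03 ± 0.05 and 0.08 ± 0.04.

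**Figure D3:**
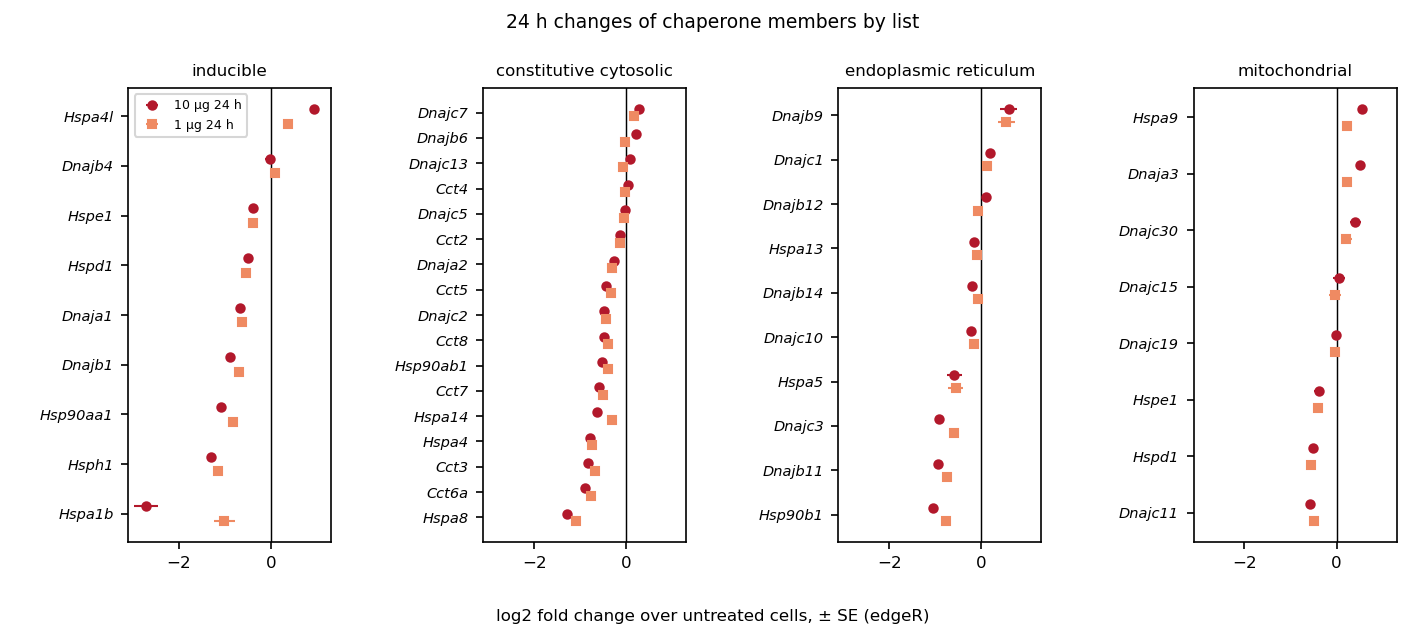
Log2 fold change over untreated cells for each tested member of the 4 lists, 10 µg 24 h as circles and 1 µg 24 h as squares, with bars for the SE from edgeR where longer than the symbol. Most inducible and constitutive members lie left of 0, Hspa4l lies right of it, and the mitochondrial list has members on both sides.

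The CCT subunits, which assemble in equal numbers into a ring of 8 kinds, changed by unequal amounts. Of 8 tested Cct genes, 6 fell and 1 rose at 10 µg 24 h and 6 fell at 1 µg 24 h. The medians were -0.46 and -0.36. Shares over all tested genes were 34.9% lower and 35.4% higher at 10 µg 24 h, and 31.0% and 30.8% at 1 µg 24 h. Cct6a had 248 ± 15.6 CPM at 10 µg 24 h and 273 ± 15.3 CPM at 1 µg 24 h, against 464 ± 7.50 CPM in untreated cells (SD, n = 3 each). Cct4 had 222, 257 and 266 CPM at 10 µg 24 h and 226, 240.2 and 254 CPM at 1 µg 24 h, against 248, 238 and 246 CPM in untreated cells. Cct6a was far below its untreated level in all 6 libraries, while the Cct4 groups overlapped. At 10 µg 24 h the log2 fold change was -0.91 ± 0.05 for Cct6a, -0.83 ± 0.05 for Cct3, -0.59 ± 0.06 for Cct7, -0.48 ± 0.05 for Cct8, -0.45 ± 0.05 for Cct5, -0.15 ± 0.05 for Cct2 and 0.03 ± 0.06 for Cct4. Of these, Cct4 did not pass (adjusted p = 0.663). The Cct2 call (adjusted p = 0.0134) ended without replicate 1 at 10 µg 24 h, where the change was -0.10 with an adjusted p of 0.0918.

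At 1 µg 24 h the Cct genes stood in the same order, with log2 fold changes of -0.77 ± 0.05 for Cct6a, -0.69 ± 0.05 for Cct3, -0.51 ± 0.06 for Cct7, -0.40 ± 0.05 for Cct8, -0.33 ± 0.05 for Cct5, -0.14 ± 0.05 for Cct2 and -0.02 ± 0.06 for Cct4. The Cct2 call at 1 µg 24 h (adjusted p = 0.0225) ended without untreated replicate 1, untreated replicate 2 or replicate 1 at 1 µg 24 h, with adjusted p of 0.0818, 0.0654 and 0.103. The quotient of Cct6a over Cct4 in CPM was 0.998 ± 0.0331 at 10 µg 24 h, 1.14 ± 0.0919 at 1 µg 24 h, 1.85 ± 0.0691 at 10 µg 6 h, 1.87 ± 0.0375 at 1 µg 6 h and 1.90 ± 0.0357 in untreated cells (SD, n = 3 each). Tcp1, the subunit whose symbol lies outside the Cct series, fell by 0.66 on the log2 scale at 10 µg 24 h. Cct6b, known as a testis form, had 14, 8 and 11 counts at 10 µg 24 h and 5, 12 and 8 counts at 1 µg 24 h, against 2, 3 and 4 counts in untreated cells. It is the 1 Cct gene counted above as higher at 10 µg 24 h, but it passed the filter on low counts only through libraries at 24 h, so its call is given as a description. Exons of Cct6a, Cct7 and Cct8 overlap genes on the other strand, and Cct3 has 1 named pseudogene, so their counts depend on a counting step that the sources used here do not give.

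**Figure D4:**
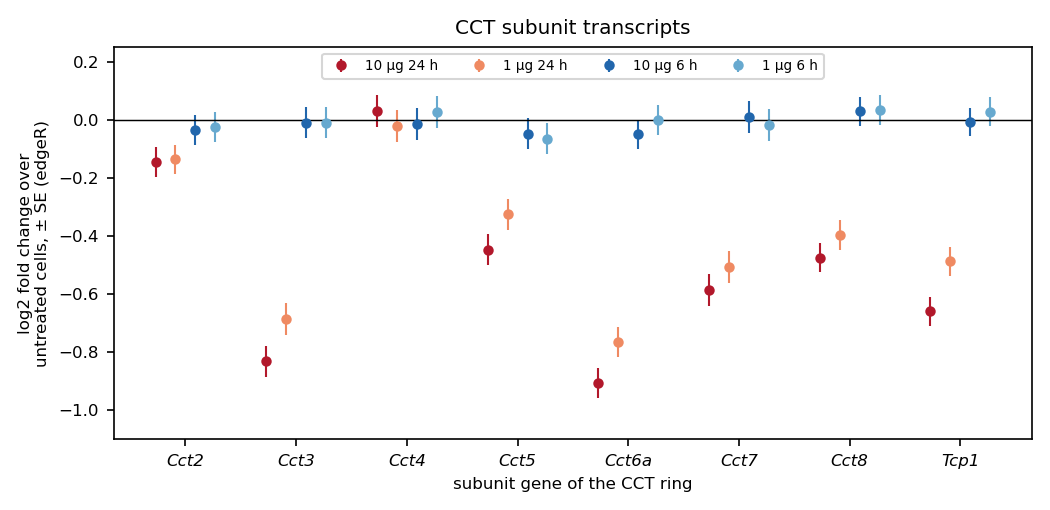
Log2 fold change over untreated cells, ± SE from edgeR, for the 8 CCT ring subunits including Tcp1, by group. At 24 h the subunits spread between about 0 for Cct4 and -0.91 for Cct6a at 10 µg, while all 6 h values lie near 0.

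In the endoplasmic reticulum most of the abundant chaperones fell and 1 sensor partner rose. All 10 members were tested, of which 6 fell and 2 rose at 10 µg 24 h and 5 fell and 1 rose at 1 µg 24 h. The medians were -0.21 and -0.13. Across all tested genes 34.9% fell and 35.4% rose at 10 µg 24 h, and 31.0% and 30.8% at 1 µg 24 h. Hspa5, the HSP70 BiP of this compartment, had 868, 1124 and 1082 CPM at 10 µg 24 h and 1395, 885 and 864 CPM at 1 µg 24 h, against 1523, 1536 and 1578 CPM in untreated cells. Replicate 1 at 1 µg 24 h was well above the other 5 libraries at 24 h but still below the untreated ones. The log2 fold change was -0.59 ± 0.16 at 10 µg 24 h and -0.56 ± 0.16 at 1 µg 24 h (adjusted p = 0.0067 and 0.0108). With only the 2 compared groups in the fit, the adjusted p at 1 µg 24 h was 0.0565.

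Hsp90b1, the HSP90 GRP94, had 529.7, 574 and 574 CPM at 10 µg 24 h and 809, 672 and 582 CPM at 1 µg 24 h, against 1122, 1209 and 1164 CPM in untreated cells. Its log2 fold change was -1.06 ± 0.08 at 10 µg 24 h and -0.76 ± 0.08 at 1 µg 24 h (adjusted p = 7.45e-10 and 1.37e-07). Dnajb11 and Dnajc3, J-domain partners of BiP, fell as well. Dnajb11 had 96.6 ± 4.04 CPM at 10 µg 24 h and 110.4 ± 12.2 CPM at 1 µg 24 h, against 184 ± 4.94 CPM in untreated cells, with log2 fold changes of -0.93 ± 0.06 and -0.74 ± 0.06 (adjusted p = 9.65e-13 and 1.64e-10). Dnajc3, also known to restrain the kinase PERK, had 70.1 ± 5.66 CPM at 10 µg 24 h and 86.5 ± 16.3 CPM at 1 µg 24 h, against 132 ± 1.64 CPM in untreated cells, with log2 fold changes of -0.91 ± 0.10 and -0.61 ± 0.10 (adjusted p = 1.13e-06 and 8.79e-05). Of the other members, Dnajc10, a disulfide reductase, changed by -0.23 ± 0.05, and Hspa13 did not pass at 10 µg 24 h (-0.17 ± 0.08, adjusted p = 0.0563). The Hspa13 result at 10 µg 24 h passed with only the 2 compared groups in the fit (-0.17, adjusted p = 0.00687) and without replicate 2 of that group (-0.22, adjusted p = 0.0327) and, at 1 µg 24 h, without replicate 1 of that group (-0.23, adjusted p = 0.00151).

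Dnajb9, a J-domain protein known to bring BiP to the stress sensor IRE1 and to keep it silent, moved the other way. It had 33.7, 38.7 and 33.8 CPM at 10 µg 24 h and 47.5, 26.6 and 27.9 CPM at 1 µg 24 h, against 22.5, 24.2 and 23.6 CPM in untreated cells. All 24 h libraries were above the untreated ones, and replicate 1 at 1 µg 24 h was the highest of all. The log2 fold change was 0.59 ± 0.19 at 10 µg 24 h and 0.54 ± 0.19 at 1 µg 24 h (adjusted p = 0.0134 and 0.025). Without replicate 1 at 1 µg 24 h the change at that dose was 0.22 with an adjusted p of 0.0223. Without untreated replicate 1 or untreated replicate 3, the adjusted p at 1 µg 24 h was 0.068 or 0.056. The quotient of Dnajb9 over Hspa5 in CPM was 0.0388, 0.0345 and 0.0312 at 10 µg 24 h and 0.0340, 0.0301 and 0.0323 at 1 µg 24 h, against 0.0148, 0.0158 and 0.0150 in untreated cells. In this quotient replicate 1 at 1 µg 24 h did not stand apart.

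The mitochondrial members went in both directions, with Hspa9 and its J-domain partner Dnaja3 higher and Hspd1 and Hspe1 lower. Of 8 tested, 3 rose and 3 fell at 10 µg 24 h, and 2 rose and 3 fell at 1 µg 24 h. Over all tested genes 35.4% rose and 34.9% fell at 10 µg 24 h, and 30.8% and 31.0% at 1 µg 24 h. Hspa9, the mitochondrial HSP70 mortalin, which pulls proteins into the matrix and folds them, had 729, 768 and 750.4 CPM at 10 µg 24 h and 499.7, 630.5 and 657 CPM at 1 µg 24 h, against 492, 539 and 499 CPM in untreated cells. The 10 µg 24 h libraries lay above all others, whereas replicate 1 at 1 µg 24 h lay among the untreated ones. Its log2 fold change was 0.55 ± 0.07 at 10 µg 24 h and 0.22 ± 0.07 at 1 µg 24 h (adjusted p = 4.19e-07 and 0.00881). At 1 µg 24 h the call ended without replicate 2 or replicate 3 of that group, with adjusted p of 0.0566 and 0.0673. Dnaja3 had 142 ± 7.64 CPM at 10 µg 24 h and 117 ± 10.3 CPM at 1 µg 24 h, against 99.9 ± 7.22 CPM in untreated cells, with log2 fold changes of 0.50 ± 0.06 and 0.22 ± 0.06 (adjusted p = 3.92e-08 and 0.00245). Grpel1, the nucleotide exchange factor of Hspa9 and no member, was lower, with 47.0 ± 2.39 CPM at 10 µg 24 h and 46.6 ± 0.741 CPM at 1 µg 24 h, against 54.4 ± 4.63 CPM in untreated cells (SD, n = 3 each). Its log2 fold changes were -0.21 ± 0.06 and -0.22 ± 0.06 (adjusted p = 0.00433 and 0.00298), and its relative Grpel2 did not pass at 10 µg 24 h (0.14 ± 0.07, adjusted p = 0.0781), both genes being named after their values were seen. Hspa9 has 1 named pseudogene, and exons of Dnaja3 overlap Coro7 on the other strand.

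Hspd1, the chaperonin HSP60 that folds matrix proteins, had 219, 248 and 239 CPM at 10 µg 24 h and 219, 235 and 229.8 CPM at 1 µg 24 h, against 339, 330.1 and 336 CPM in untreated cells. Hspe1, its lid, had 12.5, 10.8 and 13.5 CPM at 10 µg 24 h and 12.8, 12.1 and 11.7 CPM at 1 µg 24 h, against 14.8, 16.2 and 17.3 CPM in untreated cells. Both genes were lower in every 24 h library than in every untreated one. Hspd1 had a log2 fold change of -0.51 ± 0.05 at 10 µg 24 h and -0.56 ± 0.05 at 1 µg 24 h, and Hspe1 one of -0.39 ± 0.10 and -0.40 ± 0.10 (adjusted p at most 0.000819). The 2 genes lie head to head with exons that overlap on opposite strands, and Hspd1 has 5 and Hspe1 6 named pseudogenes, so how the reads were counted can affect their levels. The quotient of Hspa9 over Hspd1 in CPM was 3.19 ± 0.125 at 10 µg 24 h, 2.61 ± 0.298 at 1 µg 24 h and 1.52 ± 0.0955 in untreated cells (SD, n = 3 each). Dnajc11, which works at the outer membrane and cristae, changed by -0.57 ± 0.05 at 10 µg 24 h, and Dnajc30 by 0.41 ± 0.12 (adjusted p = 3.98e-10 and 0.00477). The import motor J-domain genes Dnajc15 and Dnajc19 did not pass, at 0.06 ± 0.13 and -0.01 ± 0.07.

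The Dnajc genes as a family went both ways. Among the 25 tested Dnajc genes, 9 rose and 8 fell at 10 µg 24 h, a count that includes those on the lists above. This was near the shares over all tested genes, of which 35.4% rose and 34.9% fell. Dnajc9, which also chaperones histones, had 26.7, 27.4 and 30.4 CPM at 10 µg 24 h and 40.8, 42.3 and 37.8 CPM at 1 µg 24 h, against 68.3, 68.7 and 64.6 CPM in untreated cells. The 3 groups did not overlap and ran downward with dose, with a log2 fold change of -1.25 ± 0.06 at 10 µg 24 h and -0.74 ± 0.06 at 1 µg 24 h (adjusted p = 7.85e-15 and 2.3e-10). Dnajb2, which delivers ubiquitinated clients for degradation, had 19.3, 20.4 and 22.6 CPM at 10 µg 24 h and 18.7, 17.7 and 16.9 CPM at 1 µg 24 h, against 11.6, 13.5 and 11.6 CPM in untreated cells. It was higher in every 24 h library, with a log2 fold change of 0.76 ± 0.09 at 10 µg 24 h and 0.54 ± 0.09 at 1 µg 24 h (adjusted p = 3.09e-08 and 1.16e-05). Dnajc22 had 11.4 ± 1.27 CPM at 10 µg 24 h and 11.4 ± 1.41 CPM at 1 µg 24 h, against 6.26 ± 0.969 CPM in untreated cells, and rose at both doses (0.87 ± 0.13 and 0.87 ± 0.13). Dnajb5 rose at 10 µg 24 h (0.63 ± 0.17, adjusted p = 0.00182). At 1 µg 24 h its change was 0.44 ± 0.17 (adjusted p = 0.0258) and 0.19 without replicate 1 of that group (adjusted p = 0.324), and the call also ended without untreated replicate 1 or 3 (adjusted p = 0.101 and 0.0532). With only the 2 compared groups in the fit, the 1 µg 24 h calls of Dnajb5, Cct2, Dnajb9 and Hspa9 ended, with adjusted p of 0.0571, 0.0634, 0.126 and 0.0549.

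The small heat shock proteins were scarce. Of 7 in all, 3 were tested, Hspb6, Hspb7 and Hspb9, and the last 2 rested on 804 and 210 counts over all libraries. Log2 fold changes at 10 µg 24 h were -0.10 ± 0.11 for Hspb6, 0.74 ± 0.22 for Hspb7 and -1.70 ± 0.44 for Hspb9, of which Hspb6 did not pass (adjusted p = 0.42, 0.00397 and 0.00129). Hspbap1, named for its binding to Hspb1, had 9.53, 9.78 and 8.98 CPM at 10 µg 24 h and 7.33, 7.04 and 7.68 CPM at 1 µg 24 h, against 3.42, 4.74 and 2.63 CPM in untreated cells. The groups did not overlap, and the log2 fold change was 1.38 ± 0.15 at 10 µg 24 h and 1.02 ± 0.16 at 1 µg 24 h (adjusted p = 1.28e-08 and 3.44e-06). Hspb11, which despite its symbol is a part of the intraflagellar transport complex, rose too (0.90 ± 0.19 at 10 µg 24 h and 0.72 ± 0.20 at 1 µg 24 h). At 1 µg 24 h its change was 0.44 without replicate 3 (adjusted p = 0.0476). Hspbp1, a nucleotide exchange factor of HSP70, fell (-0.34 ± 0.07 at 10 µg 24 h and -0.55 ± 0.07 at 1 µg 24 h). The 12 members removed by the filter had 0 to 66 counts over the 15 libraries, with no count for Dnajb3, Dnajb7, Dnajc5g and Hspb2. A count of 0 in a library allows up to 3 counts, or 0.13 to 0.16 CPM, for counting error only.

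At 6 h no member passed the test at either dose. At 10 µg 6 h the count was 0 of 70, where 5.95% of all tested genes passed, 4.09% higher and 1.86% lower. An unadjusted p under 0.05 was found for 7 of 70 members, beside 2288 of all 12401 tested genes. DESeq2 and limma-voom also called 0 members there, while edgeR with only the compared groups in the fit called 3. Hspa1b had the largest change of the inducible list, 0.43 ± 0.20, with 3 libraries at 10 µg 6 h above the 3 untreated ones (adjusted p = 0.257, and 0.00612 with only these 2 groups in the fit). For Dnajb1 the change was -0.18 ± 0.07 (adjusted p = 0.148, and 0.0335 with only these 2 groups). For Hspa4l it was 0.15 ± 0.07 (adjusted p = 0.23). At 1 µg 6 h the count was again 0, where 0.0% of all genes passed. Here 1 of 70 members had an unadjusted p under 0.05, beside 337 of all 12401 genes. Between the doses at 6 h the count was 0, where 2.35% of all genes passed, 1.85% higher and 0.492% lower. There 4 of 70 members had an unadjusted p under 0.05, beside 1573 of all 12401 genes. In both of these comparisons DESeq2 and limma-voom called 0 members as well. With only the compared groups in the fit edgeR called 0 at 1 µg 6 h and 1 between the doses. For the fits with only the compared groups, no counts over all genes were taken.

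The time comparisons within a dose use the same 24 h libraries but not the untreated ones, and gave changes of similar size. Since 6 h levels were close to untreated ones, these comparisons are not separate support. At 10 µg, 24 h against 6 h, 51 of 70 members passed, 17 higher and 34 lower, where 69.2% of all genes passed, 34.0% higher and 35.2% lower. For 1 µg, 47 passed, 16 higher and 31 lower, where 60.7% of all genes passed, 30.3% higher and 30.5% lower. The inducible list again had 1 member higher and 7 lower at each dose. Hsph1 changed by -1.28 ± 0.06 at 10 µg and -1.12 ± 0.06 at 1 µg, Hspa8 by -1.22 ± 0.05 and -1.05 ± 0.05, and Hspa4l by 0.77 ± 0.07 and 0.28 ± 0.07 (adjusted p at most 0.00115). In the endoplasmic reticulum, Dnajb11 changed by -0.88 ± 0.06 at 10 µg and -0.72 ± 0.06 at 1 µg (adjusted p = 3.19e-12 and 2.99e-10).

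Between the doses at 24 h fewer members passed. Of 70, 23 passed for 10 µg against 1 µg, 10 higher and 13 lower, where 35.3% of all genes passed, 16.0% higher and 19.3% lower. With only these 2 groups in the fit 13 members passed, without a count over all genes for that fit. The calls that ended included those of Cct3, Cct6a, Dnajb1, Dnajb2, Dnajb11, Dnajc3, Hsp90ab1, Hsp90b1 and Hspbp1. The largest difference was that of Hspa1b (-1.70 ± 0.28, adjusted p = 0.000155), and other calls were those of Hspa4l (0.56 ± 0.07), Dnajc9 (-0.52 ± 0.07), Hspa9 (0.33 ± 0.07), Hspa14 (-0.31 ± 0.06), Dnaja3 (0.28 ± 0.06), Hsp90aa1 (-0.24 ± 0.05), Dnajb6 (0.23 ± 0.04) and Hspa8 (-0.19 ± 0.05). These 9 calls held when any 1 library of either group was left out. Without replicate 1 at 1 µg 24 h the Hspa9 difference was 0.22 (adjusted p = 0.000554). Hsp90b1 differed by -0.30 ± 0.08, and by -0.17 without that library (adjusted p = 0.0168).

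Other dose differences depended on single libraries, with adjusted p of 0.0533 to 0.252 once a call had ended. Leaving out replicate 1 at 1 µg 24 h ended the calls of Dnajb11, Dnajc3, Hspbp1 and Hspbap1, replicate 2 those of Cct3, Cct6a, Dnajb1, Dnajb2, Hsp90ab1 and Hspbap1, and replicate 3 those of Dnajb1, Dnajb2, Hspbp1 and Hspbap1. Leaving out replicate 1 at 10 µg 24 h ended those of Cct3, Cct6a, Dnajb1, Dnajb11, Dnajc3, Hsp90ab1, Hspbp1 and Hspbap1. Replicate 2 did so for Dnajb1, Dnajb2, Hsp90ab1 and Hspbap1, and replicate 3 for Dnajb2, Dnajc3, Dnajc16, Hspbp1 and Hspbap1. Hsph1 did not pass between the doses (-0.14 ± 0.07, adjusted p = 0.0948). It passed without replicate 3 at 1 µg 24 h (-0.21, adjusted p = 0.0154) and was at -0.04 without replicate 1. Hspa5 did not pass either (-0.03 ± 0.16, adjusted p = 0.903), but without replicate 1 at 1 µg 24 h it was higher at 10 µg by 0.23 (adjusted p = 0.0237). Dnajb9 likewise went to 0.38 without that library (adjusted p = 0.000375), against 0.06 ± 0.18 with it. Hspd1, at 0.05 ± 0.05, and Hspa4, at -0.04 ± 0.05, did not pass between the doses. The change between doses differed with time for 6 members, 3 in each direction, where 18.6% of all genes passed that test, 7.58% higher and 11.0% lower. In that test Hspa4l had an interaction of 0.49 ± 0.10 and Hspa1b of -2.10 ± 0.35 on the log2 scale (adjusted p = 0.000662 and 0.00051).

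Of the 54 other genes on the list of co-chaperones, folding enzymes and heat shock factors, 52 were tested. Of these, 38 fell and 5 rose at 10 µg 24 h, with a median log2 fold change of -0.34, and at 1 µg 24 h 37 fell and 3 rose, with a median of -0.30, beside 0.01 for all genes. Of all genes tested, 34.9% fell and 35.4% rose at 10 µg 24 h, and 31.0% fell and 30.8% rose at 1 µg 24 h. The largest falls at 10 µg 24 h were those of Calr, the lectin chaperone calreticulin, at -1.61 ± 0.08, and Fkbp5, an immunophilin partner of HSP90, at -1.27 ± 0.08 (adjusted p = 3.1e-13 and 4.72e-13). The largest rises were those of Hscb, a J-domain protein of iron-sulfur cluster assembly, at 1.00 ± 0.12 (adjusted p = 2.81e-08), and Hsf4 at 0.75 ± 0.31 (adjusted p = 0.0342). The Hsf4 call ended without untreated replicate 2 or 3 or without replicate 1 or 3 at 10 µg 24 h, with adjusted p between 0.055 and 0.14, and the adjusted p from DESeq2 was 0.0918. The transcripts of the main heat shock factors did not pass, with Hsf1 at -0.03 ± 0.07 and Hsf2 at 0.01 ± 0.08 (adjusted p = 0.719 and 0.917).

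By Pearson correlation of log2 CPM over the 15 libraries, a description that follows the group differences all libraries share, the genes most like Hsph1 were Atp2a2 (0.996), Tmem97 (0.995) and Cdv3 (0.994). Those most like Hspa5 were Sec61a1 (0.979), Hyou1 (0.968) and Selenos (0.967). None of these 6 was a member.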

How the data were processed

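RNA from 15 RAW264.7 libraries, per the labels extracted with TRIzol and RNeasy columns and prepared with the TruSeq stranded mRNA kit, had been counted by the authors, who deposited raw read counts by symbol in 1 table. The build GRCm39 comes from the submitters' processing notes; the aligner, counter, annotation, strand setting and filters are not stated in labels or headers. Counts were fitted with edgeR 4.0.16 (R 4.3.3; filterByExpr, TMM scaling, robust quasi-likelihood fit of all 15 libraries, 10 residual degrees of freedom) and p-values adjusted by the Benjamini-Hochberg method over 12401 genes; the script was tested on simulated data. Alternatives used DESeq2 1.42.0 and limma 3.58.1 (voom). Log2 fold changes carry SE. Exon lengths came from a GRCm38 annotation, used for levels per kb only. Members and lists were chosen with earlier results of these data known. Named were 26 core members whatever they showed and, per comparison, the called members with the 8 largest rises and 8 largest falls at 5 CPM or more, plus 2 and 2 co-chaperones; other genes complete a list or count and were chosen after their values were seen. With 1 batch label for all libraries, no batch effect could be examined.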

Additional observations from a re-analysis of the deposited data

Results flagged for a closer look

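Dose and time interacted for 6 of the 70 tested members, where 18.6% of all genes did, 7.58% higher and 11.0% lower. The interaction is the 10 µg minus 1 µg difference at 24 h less that at 6 h, on the log2 scale, tested with edgeR. It was 0.49 ± 0.10 (SE) for Hspa4l, 0.38 ± 0.08 for Dnaja3 and 0.37 ± 0.10 for Hspa9, which were higher at the higher dose at 24 h (adjusted p = 0.000662, 0.00209 and 0.0122). It was -2.10 ± 0.35 for Hspa1b, -0.39 ± 0.09 for Dnajc9 and -0.24 ± 0.08 for Hspa14 (adjusted p = 0.00051, 0.00297 and 0.0308). The Hspa14 call ended when any of 7 libraries was left out in turn: replicate 1 or 3 at 1 µg 6 h, replicate 2 at 1 µg 24 h, replicate 1 or 3 at 10 µg 6 h, or replicate 2 or 3 at 10 µg 24 h (adjusted p 0.0636 to 0.0915).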

How the results depend on the processing

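With DESeq2 size factors, no filter, DESeq2, limma-voom and the replicate block, the count of members called stayed within 1.5 times the reported one in all comparisons. With only the compared groups in the fit it was 3 at 10 µg 6 h, 1 between doses at 6 h and 13 between doses at 24 h. Counts over all genes were not taken for these fits. Leaving out 1 library gave 51 to 53 members at 10 µg 24 h, 38 to 45 at 1 µg 24 h, 0 at each 6 h comparison, 16 to 23 between doses at 24 h, 47 to 50 and 41 to 46 for 24 h against 6 h at 10 µg and 1 µg, and 5 to 9 for the interaction. Same-numbered libraries did not deviate together (correlations of -0.081 to 0.096), and with the replicate number as a block 53, 43 and 19 members were called at 10 µg 24 h, at 1 µg 24 h and between doses at 24 h.

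Of 201 gene results, 158 kept direction and call under all alternatives run. With 1 library left out, these non-passing changes took either sign, and the cause was not tested. At 10 µg 24 h the log2 change was -0.025 to 0.11 for Cct4, -0.10 to 0.017 for Dnajb4, -0.10 to 0.025 for Hsf1 and -0.050 to 0.099 for Hsf2. At 1 µg 24 h it was -0.065 to 0.019 for Cct4 and -0.092 to 0.16 for Dnajb4, the outermost positive Cct4 and negative Dnajb4 values coming without replicate 1. Between doses at 24 h it was -0.10 to 0.38 for Dnajb9 and -0.15 to 0.23 for Hspa5, both highest, and then called, without 1 µg replicate 1. Depth limits the members under 100 counts, which include Cct6b.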
